A study of Mus musculus with 12 samples.

Results

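The caveola coat and neck genes examined here are Cav1, Cav2, Cavin1, Cavin2, Cavin3, Ehd2 and Pacsin2, taken by name from the 25239 genes listed in the deposited expression table and from the deposited m6A peak table. All 7 had a p-value, as did 16167 genes in all. The members were chosen by name with their log2 fold changes after MA treatment in view, so those changes are given as a description and not as a test. HT22 is a mouse hippocampal neuron line, labelled wild type, and mesaconitine (MA) is a diterpenoid alkaloid of Aconitum. Cells received 800 μM MA or 0 μM MA for 72 h, and each condition has 3 input libraries and 3 libraries of RNA pulled down with an anti-m6A antibody, 12 in all. MA was dissolved in DMSO, and whether the control cells received DMSO is not given in the sources used here. The labels do not say that the 3 libraries of a group came from separate cultures, so the errors may be technical.

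Caveolae are small flask-shaped pits of the plasma membrane that buffer membrane tension and hold signalling receptors and lipids. Caveolin-1 inserts into the inner leaflet and oligomerizes, and cavin-1 joins it as a peripheral coat without which caveolae do not form. Cavin-2 and cavin-3 assemble with cavin-1, while EHD2, an ATPase, and PACSIN2, a membrane-bending F-BAR protein, sit at the neck of the pit. Caveolae are abundant in endothelial cells, adipocytes, muscle and fibroblasts.

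After MA treatment 2 of the 3 cavins and both neck genes were lower by the rule given below, and neither caveolin was called in either direction. Cavin2, which encodes a cavin known for shaping the curved coat, was 2.79-fold lower. Ehd2 was 1.78-fold lower, Cavin1 1.54-fold lower and Pacsin2 1.31-fold lower. Cav2 was 1.14-fold higher, and for Cav1 the standard error was larger than the change. Calls required an unadjusted p under 0.05 (DESeq2, as deposited) together with a change of more than 1.2-fold. By this rule 4 of the 7 members were lower and 0 were higher, against 7.07% and 6.8% of all 16167 genes. At an unadjusted p under 0.05 with no fold threshold, 5 members were lower and 1, Cav2, was higher, against 1770 and 1614 of all 16167 genes. The median change of the members was -0.39 on the log2 scale, and that of all genes was -0.01. These counts describe the contrast on which the members were chosen. Every direction given here rests on reversing the sign of the deposited expression change, and the study's own tables do not all use the same sign.

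The cell line was compared with its label before the members were described. Of 8 neuronal markers, Map2, Snap25 and Gria1 were listed at 0, and Rbfox3 had a base mean of 1.15, where the base mean is the average of a gene's normalized counts across the compared libraries. Tubb3 and Syn1 had base means of 473 and 710, and Camk2a and Grin1 of 30.1 and 0.323. Tubb3 was counted as lower, with a log2 change of -0.40 (standard error 0.13). Camk2a went the other way, with a change of 0.92 (standard error 0.48), and was not called. All 6 fibroblast or mesenchymal markers were listed above 0, with base means of 134804 for Col3a1, 100160 for Col1a1 and 110058 for Vim, although Lum had only 1.35. Endothelial markers Pecam1, Cdh5, Kdr and Tek had base means of 6.71, 6.81, 0.493 and 2.45, and Adipoq and Plin1, markers of adipocytes, were listed at 0. Of the fibroblast or mesenchymal markers, 3 of 6 were also counted as lower after MA treatment, Col1a1, Col3a1 and Dcn, and 0 as higher. The shares of all genes were 7.07% and 6.8%. Vim had a log2 change of -0.04 (standard error 0.06). Pdgfra, with a base mean of 8906, had -0.15 (standard error 0.10) and was not called. Computed from base mean and change as for the members, the summed level of the 6 fibroblast or mesenchymal genes was 449083 normalized counts in control and 259066 with MA. The fall in this sum is mostly that of the collagen genes Col1a1 and Col3a1, with changes of -0.94 and -1.42. The summed level of the neuronal markers was 1287 and 1142. Acta2, a smooth muscle marker with a base mean of 862, was also counted as lower, with a change of -0.32 (standard error 0.10). Of the other smooth muscle and pericyte markers, Myh11 had a base mean of 11.1 and was not called, and Rgs5 was listed at 0. The part of these markers in the change of the caveola genes was not tested. The table holds no values of single libraries, and in bulk RNA fewer cells of a type and less RNA per cell cannot be told apart.

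The 5 promoter stretches printed here belong to members that were lower (Cavin2, Ehd2 and Pacsin2) and to the caveolins. They are shown so that the bases before the start sites can be set beside the unlike changes described later. Each runs 5′ to 3′ on the strand of the gene, from RefSeq on GRCm38.p6, the same assembly as the mm10 build used for the alignment. Capitals mark the GC box GGGCGG, the AP-1 motif TGACTCA, the TATA box TATAAA and the CCAAT box, each on either strand. The positions are chr1:51288876-51289125 for Cavin2 (plus strand), chr7:15967568-15967785 for Ehd2 (minus strand), chr15:83464607-83464856 for Pacsin2 (minus strand), chr6:17306085-17306334 for Cav1 and chr6:17280935-17281184 for Cav2 (both plus strand).
Cavin2: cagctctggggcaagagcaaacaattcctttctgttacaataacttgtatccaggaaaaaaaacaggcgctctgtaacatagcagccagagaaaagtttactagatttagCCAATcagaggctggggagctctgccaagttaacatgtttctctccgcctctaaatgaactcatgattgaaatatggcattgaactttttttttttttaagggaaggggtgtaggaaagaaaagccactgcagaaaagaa
Ehd2: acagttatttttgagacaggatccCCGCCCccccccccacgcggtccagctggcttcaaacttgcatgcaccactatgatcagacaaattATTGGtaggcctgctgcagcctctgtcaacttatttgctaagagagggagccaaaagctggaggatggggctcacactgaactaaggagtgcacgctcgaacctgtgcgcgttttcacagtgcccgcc
Pacsin2: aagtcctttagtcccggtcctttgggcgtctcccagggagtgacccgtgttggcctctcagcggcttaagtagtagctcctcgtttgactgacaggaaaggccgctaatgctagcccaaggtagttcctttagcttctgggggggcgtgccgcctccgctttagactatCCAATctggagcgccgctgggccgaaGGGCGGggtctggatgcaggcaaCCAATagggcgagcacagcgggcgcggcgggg
Cav1: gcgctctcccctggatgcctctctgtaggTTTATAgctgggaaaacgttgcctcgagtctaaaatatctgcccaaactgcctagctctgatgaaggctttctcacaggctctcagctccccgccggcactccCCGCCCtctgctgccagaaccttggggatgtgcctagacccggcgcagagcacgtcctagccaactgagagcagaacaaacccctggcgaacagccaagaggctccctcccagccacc
Cav2: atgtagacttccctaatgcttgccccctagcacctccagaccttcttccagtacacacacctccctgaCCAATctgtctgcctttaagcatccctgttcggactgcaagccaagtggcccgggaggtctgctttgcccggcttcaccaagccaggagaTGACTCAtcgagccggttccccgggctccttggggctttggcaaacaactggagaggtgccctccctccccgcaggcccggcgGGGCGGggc
Cavin2, the member with the largest decrease, had the lowest GC content of these windows.

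The RefSeq table held 10 start sites of 6 members and none of Cavin3. Over the 250 bases before the start, the GC content was 40.4% for Cavin2, 58.0% for Ehd2, 62.0% for Cav2, 67.6% for both starts of Cavin1, and 59.6% and 60.8% for the starts of Cav1. The 3 starts of Pacsin2 had 50.8%, 46.4% and 62.0%, and the median of all 32851 promoters was 52.4%. The GC box occurred before at least 1 start of Cav1, Cav2, Cavin1, Ehd2 and Pacsin2, and in 32.7% of all promoters. It was not found in the Cavin2 window. In Ehd2 it lies within a run of C, 226 bases before the start. A CCAAT box, a motif added after these sequences were seen, was found before Cav2, Cavin1, Cavin2, Ehd2 and Pacsin2, and in 33.8% of all promoters. The AP-1 motif was found 92 bases before the start of Cav2 and 152 bases before an inner start of Pacsin2, against 4.46% of promoters in all. The TEAD motif GGAATG occurred only before Cavin1 among the members and in 12.6% of all promoters. Neither the CArG box, bound by serum response factor, nor the E-box CACGTG was found in these windows, and they occur in 1.47% and 6.02% of all promoters. The TATA box of the Cav1 window lies 221 bases before the start and on the opposite strand. The Cavin1 windows lie wholly within exons annotated by GENCODE and are not printed. The printed Ehd2 stretch ends where the GENCODE transcript begins. A match of letters is a description of the window and no evidence that a factor binds.

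Each change below is a log2 fold change of MA over control, with its standard error from the deposited DESeq2 table, in which 3 input libraries of each group were taken to be compared. The plot of member changes shows them together. To place each member, 4341 genes with a base mean between 1944 and 33790, the lowest and highest of the members, were used. Their median change was -0.02, with a median standard error of 0.08. By the call rule 397 (9.15%) of these 4341 genes were lower, a larger share than the 7.07% of all genes.

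**Figure D1:**
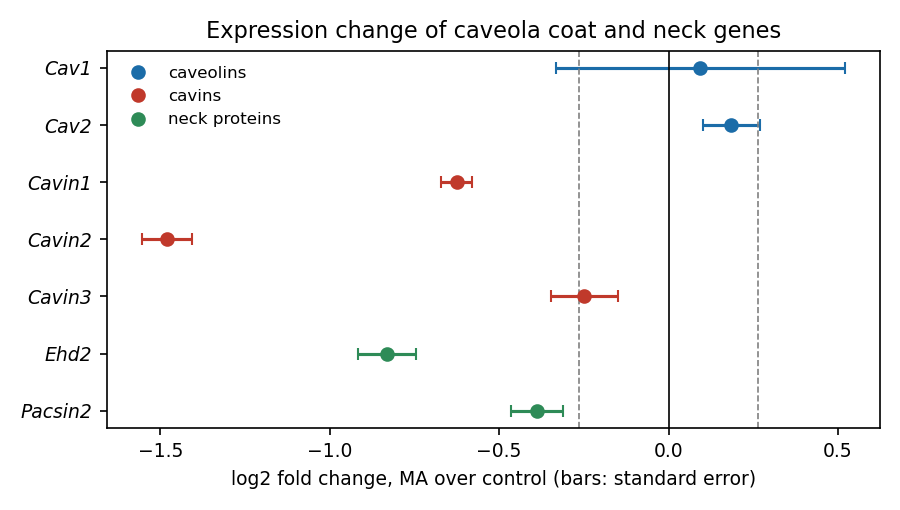
Log2 fold change of MA over control input (x axis) for the 7 members (y axis), with points for the deposited estimates and bars for their standard errors. Dashed lines mark 1.2-fold. Cavin1, Cavin2, Ehd2 and Pacsin2 lie left of the lower line with their bars, Cavin3 lies beside it, and the bar of Cav1 spans -0.33 to 0.52.

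Among the coat proteins, Cavin1 encodes the cavin required for the coat and lies on chromosome 11 from 100956733 to 100970887 (GRCm38, GENCODE M21, minus strand). Its change was -0.63 (standard error 0.05), with a base mean of 33790 that was the highest of the members. Of the 4341 genes in the range, which Cavin1 bounds at its upper end, 71 had a lower change than Cavin1.

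Cavin2 lies on chromosome 1 from 51289126 to 51302960 (plus strand), in 2 exons with a single annotated transcript. Its base mean was 13480 and its change was -1.48 (standard error 0.07). Only 6 of the 4341 genes in the range had a lower change. The decrease of Cavin2 was larger than that of Cavin1 by 0.86 on the log2 scale (standard error of the difference 0.09, taking the errors of both genes as independent).

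Cavin3 lies on chromosome 7 from 105480083 to 105482300 (minus strand) and encodes a cavin known for binding protein kinase C delta. At a base mean of 1944 its change was -0.25 (standard error 0.10), a 1.19-fold decrease that falls just short of the fold threshold. For the 3 members in the study's supplement, fold changes lie lower there than the reversed deposited ones by a nearly constant amount. On that scale Cavin3 would lie past the threshold. The same shift would lower the changes of the caveolins and of all other genes as well. The 3 cavins thus differed in the size of their change, with Cavin3 nearest to 0.

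Of the neck genes, Ehd2 lies on chromosome 7 from 15946958 to 15967567 (minus strand) and had a base mean of 8162. Its change was -0.83 (standard error 0.09), and 32 of the genes in the range lay lower. Pacsin2 lies on chromosome 15 from 83375607 to 83464606 (minus strand), with 11 annotated transcripts, the most of any member. Its base mean was 12613 and its change was -0.39 (standard error 0.08), with 186 of the genes in the range lower. Ehd2 was lower than Pacsin2 by 0.44 on the log2 scale (standard error of the difference 0.12).

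The caveolin genes are neighbours on the plus strand of chromosome 6. Cav2, from 17281185 to 17289115, ends 17.2 kb before Cav1, which runs from 17306335 to 17341452. Cav2 encodes the partner of caveolin-1 and had a base mean of 1976 and a change of 0.18 (standard error 0.08), under the fold threshold. Cav1, with a base mean of 9450, had a change of 0.09 (standard error 0.43). Set against Cav2, Cavin1 was lower by 0.81 (standard error of the difference 0.10), Cavin2 by 1.67 (0.11) and Cavin3 by 0.43 (0.13) on the log2 scale. Against Cav1, the same difference was 1.57 (standard error 0.43) for Cavin2 and 0.72 (standard error 0.43) for Cavin1.

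In order of change the members were Cavin2, Ehd2, Cavin1, Pacsin2, Cavin3, Cav1 and Cav2, from lowest to highest. The gap from Cavin2 to Ehd2 was 0.65 (standard error of the difference 0.11), from Ehd2 to Cavin1 0.21 (0.10) and from Cavin1 to Pacsin2 0.24 (0.09). From Pacsin2 to Cavin3 it was 0.14 (0.13), from Cavin3 to Cav1 0.34 (0.44) and from Cav1 to Cav2 0.09 (0.43). The gaps on both sides of Cav1 were smaller than their errors, whereas Cavin3 and Cav2, which lie further apart in this order, differed by more than theirs. The members were chosen on these changes, so the order and its gaps are a description and no test.

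Cav1 stood apart in its error. Its standard error was 6.2 times the median of the 967 genes whose base mean was within 1.5-fold of its own, and larger than that of 99.1% of them. Within the 4341 genes, 107 (2.46%) had a standard error above 0.25, and Cav1 was the only member among them. The other members had standard errors between 0.05 and 0.10, or 0.7 to 1.2 times the median of genes within 1.5-fold of their base means. Since the change of Cav1 spans -0.33 to 0.52 within 1 standard error, a decrease of the size of Cavin3 and an increase of the size of Cav2 both lie within it. Which library or libraries carried this spread was not analysed here.

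**Figure D2:**
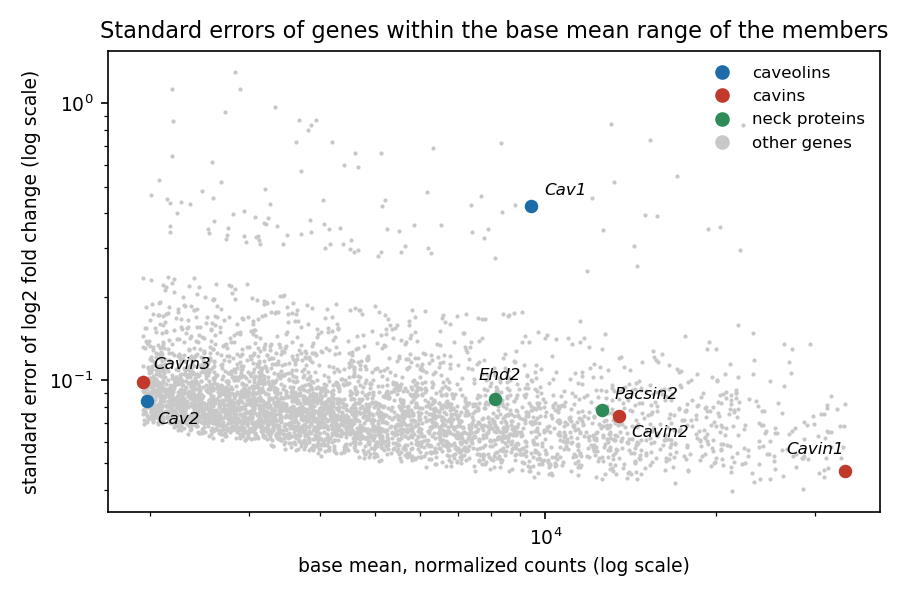
Standard error of the log2 fold change (y axis, log scale) against base mean in normalized counts (x axis, log scale) for the 4341 genes within the base mean range of the members. Coloured points are the members, and Cav1 lies in a sparse upper band while the other 6 lie in the main cloud between 0.05 and 0.10.

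To compare levels between genes, the base mean was divided by the length of the longest coding transcript. Per kb, Cavin1 had 9679 normalized counts, Cavin2 4413, Cav1 3441, Pacsin2 3415, Ehd2 1595, Cavin3 1170 and Cav2 723. The table gives no error for a base mean, so whether neighbours in this order, such as Cav1 and Pacsin2, differ beyond the spread between libraries cannot be said. Cavin1 was the most abundant member per kb and Cav2 the least.

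Group levels were computed from the base mean and the change, assuming groups of equal size. On this scale Cavin1 had 11746 normalized counts per kb in control cells and 7613 after MA treatment. Cavin2 went from 6497 to 2328. For Ehd2 the levels were 2042 and 1148, and for Pacsin2 3872 and 2959.

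The remaining members moved less on this scale. Cavin3 had 1270 normalized counts per kb in control cells and 1069 with MA, Cav1 had 3330 and 3553, and Cav2 had 677 and 769. The 3 cavins summed to 19513 without MA and 11010 with it, while the caveolins together had 4007 and 4322 and the neck genes 5914 and 4106. Cavin2 made up 33.3% of the cavin level in control cells and 21.1% with MA, and Cavin1 made up 60.2% and 69.1%. These levels carry no error of their own. Most of the caveolin level is that of Cav1, whose log2 change of 0.09 had a standard error of 0.43.

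**Figure D3:**
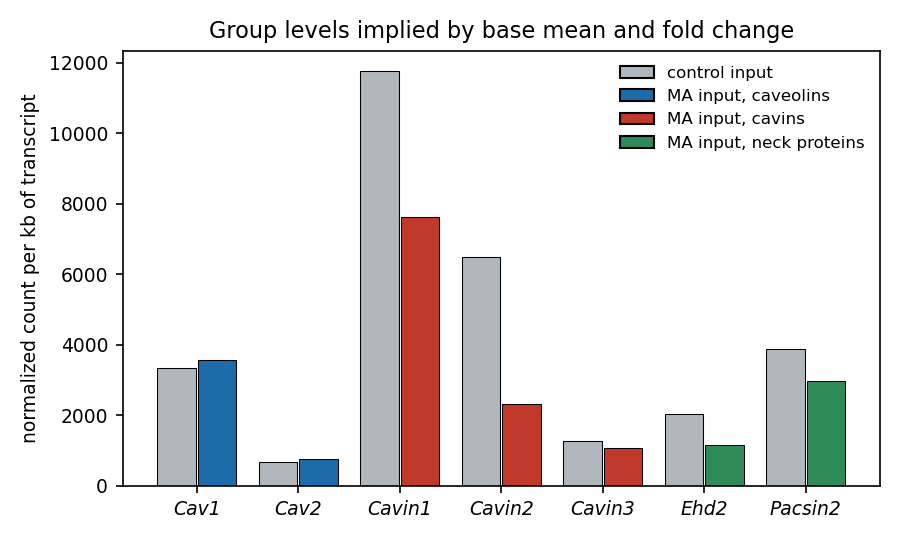
Normalized counts per kb of the longest coding transcript (y axis, from 0) for each member (x axis) in control input (grey) and MA input (coloured by role). Levels were computed from the base mean and the fold change and carry no error of their own. The bars of Cavin1 and Cavin2 drop most, from 11746 to 7613 and from 6497 to 2328. Those of Cav1 and Cav2 do not drop, but the log2 change behind the Cav1 bars, 0.09, has a standard error of 0.43.

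Cut into stretches of 50 bases, the longest coding transcripts of 6 members shared 0 stretches with transcripts of other genes, and Pacsin2 shared 1 of 73 (1.4%). These transcripts were between 1662 bases (Cavin3) and 5119 bases (Ehd2) long. Their coding parts ran from 444 bases for Cav1, the transcript of its short form, to 1632 bases for Ehd2.

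No m6A peak was listed on any of the 7 members, so none of the members could be counted among the 25.2% of peaks that were higher and the 5.94% that were lower after MA treatment (exomePeak2, unadjusted p under 0.05 and more than 1.2-fold). Of all genes with an expression p-value, 13.4% had a peak in the deposited table, and of the 4341 genes within the base mean range of the members 17.3% had one. GGACT, the most used letters of the m6A motif, occurred 2 times in Cav1, 0 times in Cav2, 2 in Cavin1, 1 in Cavin2, 0 in Cavin3, 1 in Ehd2 and 6 in Pacsin2. Per kb this was 1.62 for Pacsin2 and at most 0.73 for the others, against a median of 1.05 over 14014 genes. The peak list is one shared by control and MA cells with replicates pooled, so a gene without a peak was not called methylated there, which does not show that its mRNA carries no m6A. The list is also shorter than the set of peaks that the study describes, and a peak on a member outside the list was not analysed here.

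Partner genes were taken from 6 lists with 55 genes, of which 50 had a p-value. The lists include clathrin genes, 16 of the 50, which belong to another coat and serve for comparison. Over all 50 partner genes, 1 was higher by the rule used for the members, and 4, among them the clathrin gene Ap2a2, were lower. The shares of all genes were 6.8% and 7.07%. The median change of the 50 partner genes was -0.05 on the log2 scale. The muscle genes Cav3 and Cavin4 were listed at 0 and at a base mean of 66.0.

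Among the 6 paralogs with a p-value 0 genes were called either way. Ehd1, a recycling relative of Ehd2 and the most abundant paralog by base mean (4905), had a change of 0.01 (standard error 0.05). At an unadjusted p under 0.05 with no fold threshold, 1 paralog was lower and 1 was higher by DESeq2 as deposited. For all 16167 genes the counts were 1770 and 1614. The paralogs were Ehd4, with a change of -0.24 (standard error 0.07), and Pacsin3, with 0.26 (standard error 0.08). Pacsin3 passed 1.2-fold once all changes were centred on their median. The difference between Ehd2 and these relatives was not tested.

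Neither the 3 dynamins, GTPases that cut the neck, nor the 6 flotillin and stomatin scaffolds of other membrane domains had a called gene. Without the fold threshold 1 dynamin was lower, Dnm2, with a change of -0.11 (standard error 0.05), and 0 scaffolds were called by DESeq2. Flot2, the most abundant scaffold, had a change of -0.08 (standard error 0.07). The 4 actin linkers also held 0 called genes, and without the fold threshold 2 were lower and 1 was higher. Without it, 1770 of all 16167 genes were lower and 1614 higher. Filip1l, the most abundant actin linker, had a change of -0.22 (standard error 0.06).

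Of 15 receptors and enzymes described in caveolae, 3 were lower and 1 was higher, beside 7.07% and 6.8% of all genes. Atp2b4, a plasma membrane calcium pump, fell by 1.73 in log2 units, with an error of 0.27 and an adjusted p of 8e-09 from DESeq2 as deposited. Tgfbr2 fell by 0.80 (0.15, adjusted p = 1.3e-06 by DESeq2) and Egfr fell by 0.58 (0.13, adjusted p = 0.00023 by DESeq2). Tgfbr1, the other TGF-beta receptor chain, rose by 0.64 (0.20, adjusted p = 0.014 by DESeq2). Atp2b1, the most abundant gene of this list, had a change of -0.12 (standard error 0.06).

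Clathrin coats form the other main class of coated pits, and their genes give a comparison for the caveola coat. Of 16 clathrin and adaptor genes with a p-value, 1 was lower and 0 were higher, beside 7.07% and 6.8% of all genes. Ap2a2, an AP-2 adaptor subunit, fell by 0.39 (standard error 0.07, adjusted p = 2.8e-06 by DESeq2). The clathrin heavy chain gene Cltc had a change of 0.11 (standard error 0.05). The median over the list was -0.01, as it was for all genes. Without the fold threshold, 2 clathrin genes were lower and 3 were higher by DESeq2, beside 1770 and 1614 of all 16167 genes.

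**Figure D4:**
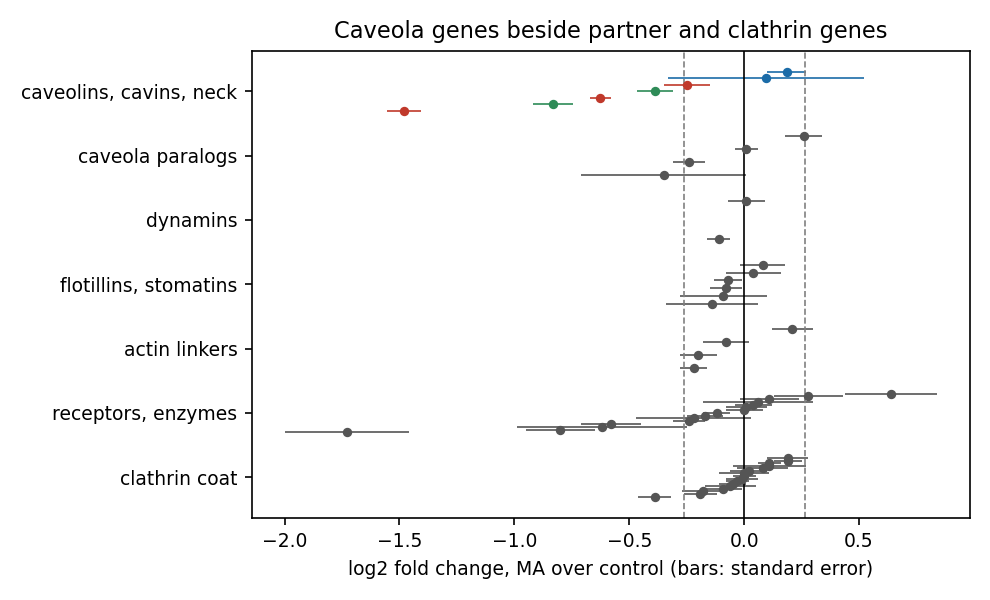
Log2 fold change of MA over control (x axis), with standard errors as bars, for the members (top row, coloured by role) and for the partner genes of each list with a base mean of at least 50. Dashed lines mark 1.2-fold. Cavin2 lies at -1.48, and the clathrin genes lie between the lines except Ap2a2 at -0.39.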

How the data were processed

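RNA of 12 HT22 libraries (3 input and 3 anti-m6A libraries per condition) was described by the authors as trimmed with fastp, aligned to mm10 with HISAT2, quantified with StringTie and compared with DESeq2. Peaks were called and compared with exomePeak2, which used size factors from background regions. The tables hold comparisons and no values of single libraries, so the depth of a library was not analysed here. Base means, deposited by the authors, are a signal in normalized units, that is, counts divided by size factors and averaged. For expression the authors deposited DESeq2's log2 fold changes, standard errors and p-values, and for peaks the corresponding output of exomePeak2. Counts of reads per peak were deposited by the authors pooled over replicates. These comparison columns were used because the tables give no other measure of change. Columns of single libraries left out numbered 0.

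The sign of the deposited expression change was reversed to read MA over control. The study's supplement lists 3 of the members, all 3 with a sign opposite to the deposited one and equal to the reversed one. Its values lie lower than the reversed ones by a nearly constant amount, so another scaling may have been used there. A table of m6A regulators in the paper prints the deposited sign instead, so the sources differ on the direction. Over 2470 peaks on genes with a p-value, the reversed change and the log2 ratio of IP reads, MA over control, had a Spearman's rho of 0.28, and of 0.59 over 166 peaks on genes with p under 0.0001. Peaks share base composition and libraries. For input reads, which the expression contrast itself compares, the rho was 0.01, so input reads in peaks gave no backing to the reversed sign. A value for the genes with p under 0.0001 is not given for input reads. IP reads also vary with m6A, so their rho does not settle the sign.

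The members and the partner lists were chosen with earlier results of these data known. Named are all members, the called genes of each partner list, and its gene with the highest base mean. Ehd4, Pacsin3 and Dnm2 were named after their values were seen. Gene positions and transcript lengths came from GENCODE M21, promoters from RefSeq (GRCm38.p6). Alternatives were an adjusted p, no fold threshold or 1.5-fold, centring, and a base mean of at least 50. The counting of calls was tested on simulated data. Scripts ran in Python 3.11.15 with pandas 2.3.3 and numpy 2.4.6, statistics in scipy 1.17.1 and plots in matplotlib 3.10.9.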

Additional observations from a re-analysis of the deposited data

How the results depend on the processing

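The count of 4 lower members was 4 with an adjusted p under 0.05, with changes centred on the median of all genes and with a base mean of at least 50. It was 5 with no fold threshold and 3 at more than 1.5-fold. The count of higher members, 0, became 1 with no fold threshold. All 7 members kept the sign of their change when centred, but the median was -0.01 and the smallest change 0.09, so no sign could turn. With no fold threshold the partner lists held 11 lower and 6 higher genes in place of 4 and 1. At more than 1.5-fold 2 partner genes were lower, and with centring 2 were higher. Over all genes, 1770 were lower and 1614 higher with no fold threshold, in place of 1143 and 1100. With an adjusted p under 0.05, 841 of all genes were lower and 765 higher. At more than 1.5-fold 486 were lower and 269 higher. Of 60 recounts of single partner lists, 50 stayed within 1.5 times the count reported and 10 did not. Many of the 50 were counts of 0, which stricter settings cannot raise, so this tally says little about how stable the lists are. No m6A peak was listed on a member, so no threshold could change that count. No paired analysis was possible because the tables give no values of single libraries, and for the same reason no replicate was left out in turn. The deposited standard errors are the only measure of the spread between libraries.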

Other observations

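Genes of the partner lists carried m6A peaks, and none was listed on the members. Of the 50 partner genes with a p-value, 11 (22.0%) had 1 or 2 peaks, 15 in all. Of all genes with a p-value 13.4% had a peak, and of those in the base mean range of the members 17.3%. With only 7 members, a count of 0 cannot be told apart from these shares. Among the 11 partner genes with a peak, 4 are clathrin genes listed for comparison, and 1 of the 4, Itsn1, had a peak counted as higher. By the thresholds used for expression, 5 of the 15 peaks were higher after MA treatment and 1 was lower, beside 25.2% and 5.94% of all 2642 peaks with a p-value. With an adjusted p under 0.05, 2 peaks were called in place of 6. The actin regulator Abl1 had a peak on chromosome 2 from 31688887 to 31688936. Its IP reads numbered 16 in control and 76 with MA, beside 36 and 11 input reads. The deposited log2 change of the IP to input ratio was 2.95 there (adjusted p = 0.0018 by exomePeak2). Another Abl1 peak close by, from 31688962 to 31689011, had a smaller change of 0.80 (adjusted p = 0.15 by exomePeak2). The peak of Erlin1 on chromosome 19 from 44069479 to 44069528 had 41 IP reads in control and 106 with MA, beside 67 and 39 input reads, and a change of 1.28 (adjusted p = 0.026 by exomePeak2). On Ehd1, the paralog of Ehd2, a peak had 563 and 609 IP reads and 555 and 502 input reads, in the same order. Its deposited change was -0.25 and it was not called. The deposited changes are estimates of exomePeak2, which used size factors, so they are not the ratios of the reads printed here. For Ehd1 the printed reads alone give a ratio that is higher with MA, opposite in sign to the deposited change. Reads are pooled over replicates, so these values carry counting error only.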
